A study of Mus musculus with 12 samples.

Results

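A set of 10 genes of transforming growth factor beta (TGF-beta) and activin signaling are described here in cardiomyocytes isolated from dystrophic mouse hearts. They were taken by symbol from the 18530 genes of the deposited table: Inhbb, Tgfb1, Tgfb2, Tgfb3, Fstl1, Tgfbr1, Tgfbr2, Smad2, Smad3 and Smad7. All 10 were in the table, and all 10 passed the level filter of at least 1 TPM in at least 3 libraries (TPM are reads per gene scaled by gene length and by the library's total). Inhbb was selected on its measured TPM, which had been seen to be higher with PB1046 than with saline in mdx, so its values in any comparison that uses those libraries are given as a description with no test. The other 9 were chosen by their place in the pathway.

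The 12 libraries came from hearts of mdx mice, which lack functional dystrophin through a mutation of Dmd, and of mdx:Utrn+/- mice, which in addition carry a single working copy of Utrn, the gene of the dystrophin homolog utrophin. Each genotype received saline or PB1046, a long-acting analog of vasoactive intestinal peptide, every other day from week 4 to week 12 of age, and hearts were collected at week 14. Every combination of genotype and treatment had 3 libraries, and the dystrophin defect is shared by all 4 groups. Of the protocol's 2 doses, 0.75 and 1.5 mg/kg, the treated libraries are labelled only as high, which was read as the larger. The study's stated subject is cAMP-PKA-CREB and NF-kB signaling. The labels do not say that each library came from a mouse of its own, so p-values measure the spread between these libraries. The batch label repeats the group, so batch cannot be told apart from genotype or treatment in any contrast.

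TGF-beta ligands are secreted in a latent form and are freed by integrins, thrombospondin and proteases. A free dimer joins a type II receptor (TGFBR2) to a type I receptor (TGFBR1), which phosphorylates SMAD2 and SMAD3, and these enter the nucleus with SMAD4. Activins, dimers of the beta subunits encoded by Inhba and Inhbb, use other receptors of the family but the same SMAD2 and SMAD3. In the heart the pathway is known for fibroblast activation and matrix deposition, and in skeletal muscle activins are known to limit mass.

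The cells were labelled as cardiomyocytes, and the 10 defining markers of that type were all detected and summed to 119364 to 161398 TPM in a library. Markers of other cells were present at lower levels. Those of fibroblasts (10 genes) summed to 241 to 1097 TPM, those of endothelium (10 genes) to 890 to 6781 TPM, those of macrophages (9 genes in the table) to 83.2 to 535 TPM and those of pericytes and smooth muscle (10 genes) to 134 to 450 TPM, and no marker of these lists was at 0 in all libraries. In such bulk samples, fewer cells of a type and less RNA per cell cannot be told apart. Under saline Utrn averaged 4.97 ± 1.51 TPM in the heterozygotes against 9.82 ± 1.29 TPM in mdx (SD, n = 3 each), and under PB1046 6.84 ± 2.82 against 13.8 ± 6.71 TPM (SD, n = 3 each), where the ranges overlapped. Whole reads recovered from the deposited values put the libraries at 7234100 to 25458194 reads. The 3 mdx saline libraries held 18162940 to 25458194 reads and the 3 mdx PB1046 libraries 11468009 to 14182350, so these groups differed in depth with no overlap. The most alike pair of libraries lay across groups: mdx:Utrn+/- PB1046 replicate 3 and mdx saline replicate 1 (Pearson r 0.991 over genes, which are not independent replicates). On the first principal component, with 30.8% of the variance, 5 libraries from 3 groups (mdx saline 2 and 3, mdx PB1046 2 and 3 and mdx:Utrn+/- PB1046 2) stood apart from the other 7. Those 5 held the highest summed endothelial markers (2576 to 6781 TPM against 890 to 1681), so relations of the members to that list over all 12 libraries are not described.

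The promoter of Inhbb is shown because this gene had the most divergent levels, that of Inhba because it encodes the other activin beta subunit and had a similar pattern over the libraries, and that of Tgfb2 for contrast. Each is the stretch of 250 bases upstream of the transcription start on the gene's own strand (RefSeq, GRCm38.p6, the build also called mm10): chr1:119422249-119422498 (minus strand) for Inhbb, chr13:16011601-16011850 (plus strand) for Inhba and chr1:186705990-186706239 (minus strand) for Tgfb2. For Tgfb2 this RefSeq start differs from the deposited gene coordinates, which reach chr1:186705992, so the window overlaps the deposited gene by a few bases. Capitals mark matches, on either strand, to the motifs searched. The cAMP response element was searched in its full form, TGACGTCA. It was also searched by its first bases alone, TGACG, which the full form contains. The SMAD-binding element was searched as the letters CAGAC. The remaining motifs were the GC box, in the form GGGCGG, the TATA box, in the form TATAAA, and the NF-kB consensus.
Inhbb: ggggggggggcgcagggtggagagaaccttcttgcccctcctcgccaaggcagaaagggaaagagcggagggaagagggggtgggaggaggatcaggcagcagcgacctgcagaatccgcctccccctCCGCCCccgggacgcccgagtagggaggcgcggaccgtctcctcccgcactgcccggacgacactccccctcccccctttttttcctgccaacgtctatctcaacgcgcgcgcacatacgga
Inhba: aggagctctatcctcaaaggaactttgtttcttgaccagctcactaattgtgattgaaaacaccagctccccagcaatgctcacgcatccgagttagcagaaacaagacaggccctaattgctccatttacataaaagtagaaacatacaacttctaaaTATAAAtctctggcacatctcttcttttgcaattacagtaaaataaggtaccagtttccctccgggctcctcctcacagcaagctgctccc
Tgfb2: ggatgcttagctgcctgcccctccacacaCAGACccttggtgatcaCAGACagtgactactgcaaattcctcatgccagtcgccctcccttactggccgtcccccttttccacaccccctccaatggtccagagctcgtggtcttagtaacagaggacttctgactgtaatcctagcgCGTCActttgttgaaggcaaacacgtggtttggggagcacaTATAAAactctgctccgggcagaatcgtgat
In this window Inhbb held 1 match, a GC box (printed as its reverse complement, bases 122 to 117 before the start). Inhba held 1 match, a TATA box at bases 91 to 86 before the start. Tgfb2 held 4: SMAD-binding elements at bases 221 to 217 and 204 to 200, a short cAMP response site (printed as its reverse complement) at bases 72 to 68 and a TATA box at bases 31 to 26. Over all 32841 promoter windows of this length, the GC box was present in 32.7%, the SMAD-binding element in 42.2%, the short cAMP response site in 17.8%, the TATA box in 12.4%, the NF-kB consensus in 7.25% and the full cAMP response element in 1.55%. These matches describe letters only, and a window without a match says nothing about whether the factor acts on the gene. RefSeq promoters were matched for 7 of the 10 genes, and Tgfb3, Smad2 and Smad7 were not among them.

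Ordered by mean TPM over the 12 libraries, Fstl1 was the most abundant at 46.2 ± 24.8 TPM, followed by Tgfb1 at 16.8 ± 6.73, Tgfbr2 at 13.9 ± 3.73, Tgfb3 at 8.79 ± 3.57 and Tgfbr1 at 7.36 ± 1.43 (SD, n = 12). The scarcer members were Smad3 at 5.87 ± 1.26, Smad7 at 5.23 ± 2.06, Smad2 at 4.21 ± 1.19, Tgfb2 at 3.95 ± 2.01 and Inhbb at 1.72 ± 1.21 TPM (SD, n = 12). Fstl1 exceeded Tgfb1 in 12 of 12 libraries and Tgfbr2 exceeded Tgfb3 in 12 of 12. Other neighbours in the order crossed in some libraries: Tgfbr1 exceeded Smad3 in 11 of 12, Tgfb1 exceeded Tgfbr2, Smad3 exceeded Smad7 and Smad7 exceeded Smad2 in 10 each, Tgfb3 exceeded Tgfbr1 in 9, Smad2 exceeded Tgfb2 in 8 and Tgfb2 exceeded Inhbb in 9. From Smad3 down to Tgfb2, each mean lay within 1 SD of the next.

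**Figure D1:**
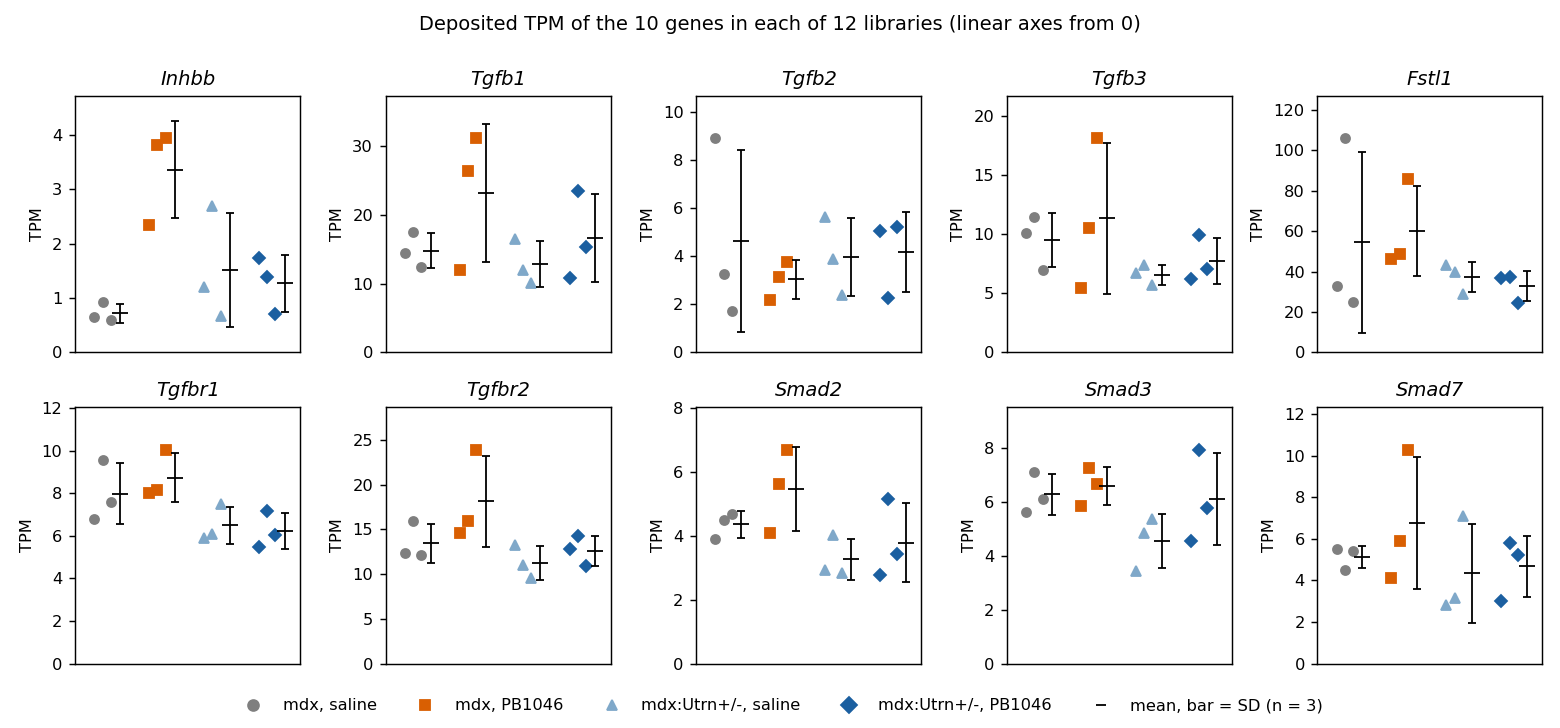
Deposited TPM of each of the 10 genes (vertical axes, linear, from 0) in the 12 libraries, coloured by group, with the group mean and SD (n = 3) beside the points. For Inhbb the 3 mdx PB1046 libraries (2.33 to 3.93 TPM) lie above the 3 mdx saline libraries (0.588 to 0.922 TPM), and for the other 9 genes the treated and saline libraries of a genotype overlap.

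Inhbb (chr1:119415465-119422248, minus strand, mm10) encodes the beta B subunit of activin and inhibin. It stood at 0.652, 0.922 and 0.588 TPM in mdx saline replicates 1, 2 and 3 and at 2.33, 3.81 and 3.93 TPM in mdx PB1046. All 3 treated libraries lay above all 3 saline ones, and no other member's groups were apart in either direction. Of all 12798 genes tested, 6.56% were higher without overlap and 2.06% lower on this scale, and 3.42% and 5.31% after scaling between libraries. With the heterozygous genotype it was at 1.19, 2.69 and 0.662 TPM with saline and at 1.73, 1.39 and 0.699 TPM with PB1046, with overlap between the groups. As a description, the difference between PB1046 and saline in mdx was 1.17 ± 0.30 (SE) on the scale log2(scaled TPM + 1). At levels this low the added 1 shrinks the difference: it was 1.70 and 1.87 with 0.25 and 0.1 added, and 2.06 by limma-voom on the recovered reads. In mdx:Utrn+/-, whose libraries did not serve to choose the gene, it was -0.18 with a 95% interval of -0.83 to 0.47 (limma, adjusted p = 1.00). The mdx:Utrn+/- minus mdx difference was 0.60 with saline and -0.75 with PB1046, and the PB1046 effects of the genotypes differed by -1.35, all 3 again as descriptions that share the mdx libraries. The authors' deposited table gave a log2 fold change of -2.03, saline minus PB1046 in mdx, with a false discovery rate of 0.725. This rate was the smallest of the 10 genes in any of the table's 6 comparisons. It is not used as a test here, since Inhbb was selected on these libraries.

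Few reads lay behind these values. Inhbb had 42, 44 and 30 reads in mdx saline and 79, 98 and 134 in mdx PB1046. The mdx:Utrn+/- libraries had 45, 46 and 44 reads with saline and 50, 51 and 41 with PB1046. The 9 libraries outside mdx PB1046 thus held 30 to 51 reads each, while their depth ran from 7234100 to 25458194 reads. The 5 deepest libraries, from 18162940 reads up, had the 5 lowest TPM values (0.588 to 0.922), and the 7 shallower ones, up to 14696775 reads, ran from 1.19 to 3.93 TPM.

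Depth moved with the Inhbb level. Over the 12 libraries the log2 level of Inhbb and the log2 number of reads had a Pearson r of -0.85 and a Spearman rho of -0.89. Relations of Inhbb are given as descriptions with no p, since they include the mdx libraries on which it was selected. Without the 2 libraries farthest from the median depth, r was -0.82, and with group means removed it was -0.95. Of all genes, 0.649% had an r as low or lower. With log2 reads as a term in the fit, the difference in mdx was 0.73 in place of 1.17. This measure was added after the data were seen, and in mdx treatment and depth cannot be told apart because the groups do not overlap in depth.

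Inhbb also moved with other measures. With the pericyte and smooth muscle score (the mean centred log2 level of the 10 markers) r was 0.80 and rho 0.85, and r was 0.84 without the 2 farthest libraries as well as with group means removed. That marker list summed to 175 to 251 TPM in mdx saline and to 252 to 450 TPM in mdx PB1046. The score itself overlapped between these groups, at -0.25 to 0.17 in mdx saline and 0.09 to 0.66 in mdx PB1046. With Rn45s, the ribosomal RNA precursor, r was 0.76 and rho 0.75, and r was 0.71 without the 2 farthest libraries. Rn45s ran from 1039 to 10402 TPM in mdx saline and from 11570 to 25861 TPM in mdx PB1046, and with it as a term the Inhbb difference was 0.86. With the fibroblast score r was 0.68 and rho 0.69, r was 0.55 without the 2 farthest libraries and 0.68 with group means removed, and with that score as a term the Inhbb difference was 0.92. The part of these measures in the Inhbb levels was not tested beyond these fits.

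**Figure D2:**
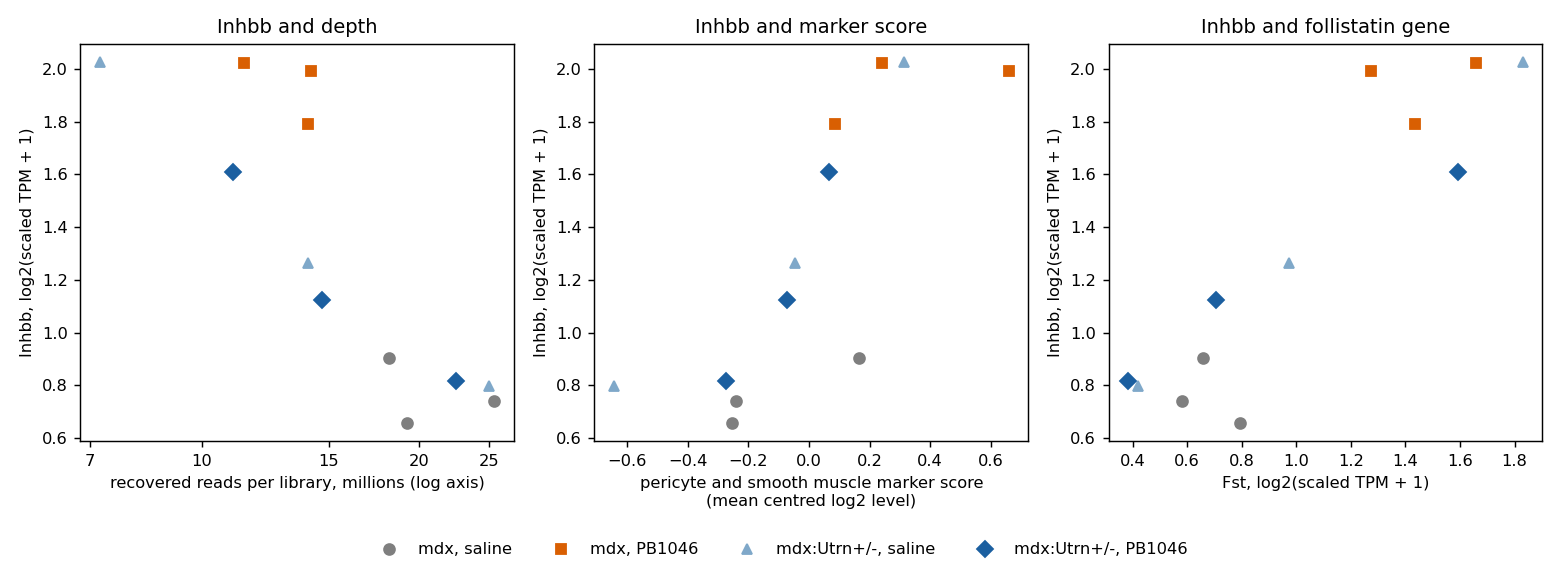
Inhbb as log2(scaled TPM + 1) in the 12 libraries against the reads recovered per library (log axis), the pericyte and smooth muscle marker score, and Fst on the same log2 scale; colours and symbols give the group. Inhbb runs down with depth (r -0.85) and up with the marker score (r 0.80) and with Fst (r 0.92).

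The genes most like Inhbb over the 12 libraries, by Pearson r of log2 levels among 12797 other genes, were Ccl7 (a chemokine, r 0.94), Has1 (a hyaluronan synthase, r 0.93), Hgf (hepatocyte growth factor, r 0.92), Fst (follistatin, the secreted antagonist that binds activins, r 0.92) and Sema3d (a semaphorin, r 0.90). They were chosen for this likeness and carry no test. Hgf reached 1 TPM only in the 3 mdx PB1046 libraries, and Fst outside them only at 2.24 and 1.70 TPM. Both thus passed the level filter only through the group where Inhbb was high. With group means removed the r of Fst was 0.93. Fst stood at 0.481, 0.611 and 0.749 TPM in mdx saline and at 1.61, 2.69 and 1.87 TPM in mdx PB1046. It was higher without overlap there, as were 6.56% of all genes tested. This is a description only, since Fst was chosen for its likeness to Inhbb. In the heterozygotes it was at 0.820, 2.24 and 0.301 TPM with saline and at 1.70, 0.747 and 0.279 TPM with PB1046, with overlap. Fst rested on 9 to 38 reads a library. Inhba, which encodes the beta A subunit, had an r of 0.84 with Inhbb, rank 53. It stood at 0.346, 1.81 and 1.53 TPM in mdx saline and at 6.66, 6.48 and 4.82 TPM in mdx PB1046, and at 5.38, 7.98 and 0.879 TPM with saline and 4.13, 3.27 and 0.379 TPM with PB1046 in mdx:Utrn+/-. The lowest library of each mdx:Utrn+/- group was replicate 3 for Inhbb, Fst and Inhba alike, and these 2 libraries were the deepest of their genotype.

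Tgfb1, the TGF-beta ligand most abundant here (chr7:25687002-25704996, plus strand), stood at 14.5, 17.5 and 12.4 TPM in mdx saline and at 11.9, 26.4 and 31.1 TPM in mdx PB1046. The mdx:Utrn+/- libraries were at 16.5, 12.0 and 10.02 TPM with saline and at 10.9, 23.5 and 15.4 TPM with PB1046. PB1046 replicate 1 was the lowest and replicates 2 and 3 were higher in both genotypes, and the treated and saline libraries overlapped. The log2 difference was 0.34 (95% interval -0.24 to 0.93) in mdx and 0.17 (-0.42 to 0.75) in mdx:Utrn+/-. Over the 12 libraries Tgfb1 ran against the cardiomyocyte score, with r -0.79 and rho -0.71 (permutation p = 0.0019 and 0.0117, adjusted 0.0266 and 0.0817 over the 70 relations computed between members and other measures, those of Inhbb and of the endothelial list included). The r was -0.57 without mdx PB1046 replicates 2 and 3, so the relation rested in part on those libraries. The libraries that stood apart on the first principal component also held the lowest cardiomyocyte scores (-0.71 to -0.06, against 0.06 to 0.32 in the others). The permutations treat all 12 libraries as interchangeable, so these p-values do not account for that split.

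Tgfb2 (chr1:186623186-186705992, minus strand), the ligand whose difference had the largest standard error, stood at 8.89, 3.27 and 1.73 TPM in mdx saline and at 2.18, 3.15 and 3.78 TPM in mdx PB1046. Among mdx:Utrn+/- hearts it was at 5.61, 3.90 and 2.40 TPM with saline and at 5.06, 2.26 and 5.22 TPM with PB1046. A single library, mdx saline replicate 1, held the highest value, and the groups overlapped. The log2 difference in mdx was -0.44 (-1.45 to 0.58), and without that library it was 0.10. It was -0.05 (-1.07 to 0.97) in mdx:Utrn+/-.

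Tgfb3 (chr12:86056743-86079041, minus strand), the third ligand of the family, stood at 10.1, 11.5 and 6.97 TPM in mdx saline and at 5.42, 10.5 and 18.1 TPM in mdx PB1046. In mdx:Utrn+/- it was at 6.70, 7.36 and 5.67 TPM with saline and at 6.20, 9.93 and 7.05 TPM with PB1046. The log2 difference was -0.06 (-0.64 to 0.53) in mdx and 0.06 (-0.53 to 0.64) in mdx:Utrn+/-, and mdx PB1046 held both the lowest and the highest library of the 12. Tgfb1 and Tgfb3 had an r of 0.68 over the libraries, the second closest pair among the members after Fstl1 and Tgfbr2 (r 0.76).

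Fstl1 (chr16:37777055-37836516, plus strand) encodes a secreted glycoprotein related to follistatin. It stood at 32.8, 106 and 24.8 TPM in mdx saline and at 46.1, 48.5 and 85.9 TPM in mdx PB1046. The heterozygotes had it at 43.4, 39.6 and 28.8 TPM with saline and at 36.9, 37.2 and 24.5 TPM with PB1046. The log2 difference was 0.19 (-0.75 to 1.12) in mdx and -0.33 (-1.26 to 0.61) in mdx:Utrn+/-. The highest library was mdx saline replicate 2, which also held the highest summed fibroblast markers of its group (927 TPM against 342 and 247).

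Fstl1 followed the fibroblast markers, which did not contain it. Its log2 level had an r of 0.91 and a rho of 0.92 with the fibroblast score (permutation p = 2e-05 and 0.00014, adjusted 0.0014 and 0.0098). The r was 0.91 without the 2 farthest libraries (mdx saline replicate 3 and mdx:Utrn+/- saline replicate 3) and 0.93 with group means removed, and of all genes 0.242% had an r as high or higher. With the fibroblast score as a term, the PB1046 difference of Fstl1 in mdx was -0.36. With the macrophage score its r was 0.75 and rho 0.73 (permutation p = 0.00426 and 0.00837, adjusted 0.0381 and 0.0732).

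**Figure D3:**
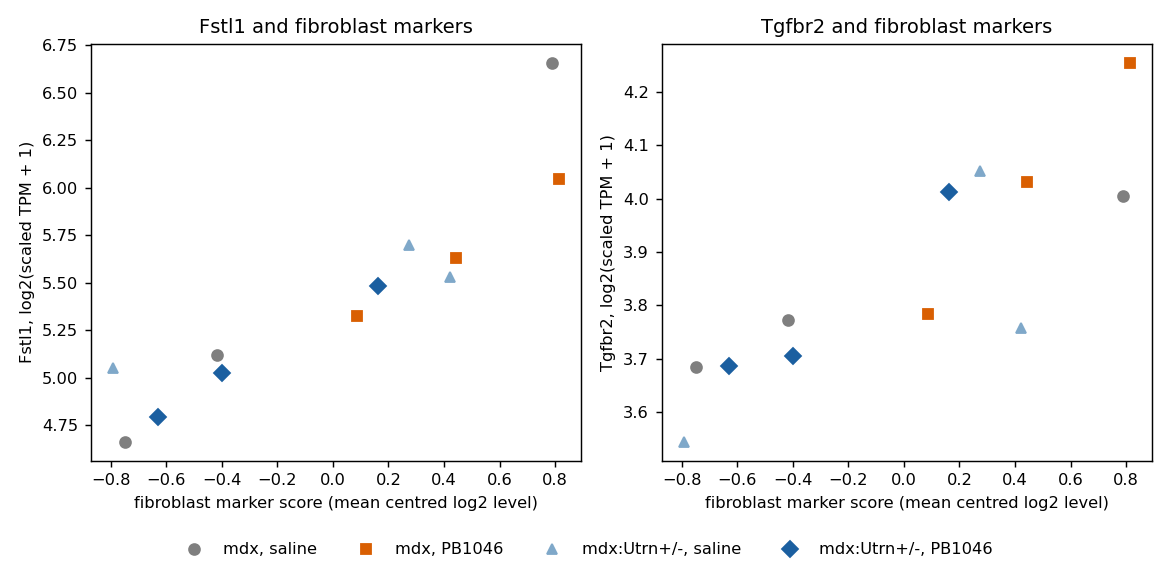
Fstl1 and Tgfbr2 as log2(scaled TPM + 1) in the 12 libraries against the fibroblast marker score, the mean centred log2 level of 10 markers; colours and symbols give the group. Both genes run up with the score (r 0.91 for Fstl1 and 0.85 for Tgfbr2), and libraries of all 4 groups lie along the same course.

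Of the receptors, Tgfbr2 (chr9:116087695-116175363, minus strand), the type II receptor, stood at 12.3, 16.0 and 12.1 TPM in mdx saline and at 14.6, 15.9 and 23.9 TPM in mdx PB1046. In mdx:Utrn+/- hearts it was at 13.3, 10.98 and 9.56 TPM with saline and at 12.8, 14.2 and 10.9 TPM with PB1046. The log2 difference was 0.20 (-0.22 to 0.63) in mdx and 0.02 (-0.41 to 0.44) in mdx:Utrn+/-. Tgfbr2 had an r of 0.85 and a rho of 0.85 with the fibroblast score (permutation p = 0.00064 and 0.00097, adjusted 0.0131 and 0.0170), and r was 0.79 without the 2 farthest libraries and 0.83 with group means removed. With the pericyte and smooth muscle score its r was 0.75 and rho 0.70 (permutation p = 0.00435 and 0.0143, adjusted 0.0381 and 0.0911), and r was 0.39 without mdx PB1046 replicate 3 and mdx:Utrn+/- saline replicate 3, so that relation rested on those libraries.

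Tgfbr1 (chr4:47353305-47414924, plus strand), the type I receptor, varied little. It stood at 6.79, 9.56 and 7.58 TPM in mdx saline and at 7.99, 8.14 and 10.04 TPM in mdx PB1046. Among the heterozygotes it was at 5.91, 6.07 and 7.49 TPM with saline and at 5.49, 7.16 and 6.05 TPM with PB1046. The log2 difference was -0.05 (-0.41 to 0.32) in mdx and -0.18 (-0.54 to 0.18) in mdx:Utrn+/-. After scaling, all 3 mdx:Utrn+/- PB1046 libraries lay below all 3 saline ones, as did 2.12% of all genes tested, with 3.63% above. As deposited no member's groups were apart in that contrast, against 5.14% of all genes above and 1.06% below.

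Smad2 and Smad3 carry the receptor signal to the nucleus. Smad2 stood at 3.88, 4.50 and 4.69 TPM in mdx saline and at 4.08, 5.603 and 6.69 TPM in mdx PB1046. It was at 2.94, 4.01 and 2.83 TPM with saline and at 2.78, 5.15 and 3.43 TPM with PB1046 in mdx:Utrn+/-. Its log2 difference was 0.09 (-0.29 to 0.48) in mdx and 0.03 (-0.36 to 0.42) in mdx:Utrn+/-, both within the spread of the libraries. Smad3 (chr9:63646767-63757994, minus strand) stood at 5.63, 7.12 and 6.10 TPM in mdx saline and at 5.83, 7.24 and 6.67 TPM in mdx PB1046. It was at 3.43, 4.85 and 5.36 TPM with saline and at 4.56, 7.93 and 5.78 TPM with PB1046 in mdx:Utrn+/-. Its log2 difference was -0.10 (-0.49 to 0.28) in mdx and 0.22 (-0.17 to 0.61) in mdx:Utrn+/-. As deposited, Smad3 was lower in all 3 mdx:Utrn+/- saline libraries than in all 3 mdx saline ones, but 15.1% of all genes tested were too (0.703% were higher). After scaling no member's groups were apart in that contrast, against 3.82% of all genes higher and 5.67% lower.

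Smad7, the inhibitory SMAD that is itself induced by TGF-beta, stood at 5.49, 4.52 and 5.39 TPM in mdx saline and at 4.13, 5.88 and 10.3 TPM in mdx PB1046. With the heterozygous genotype it was at 2.82, 3.14 and 7.08 TPM with saline and at 3.01, 5.79 and 5.24 TPM with PB1046. The highest library was mdx PB1046 replicate 3, and the groups overlapped in both genotypes. Its log2 difference was 0.10 (-0.54 to 0.74) in mdx and 0.02 (-0.63 to 0.66) in mdx:Utrn+/-.

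Tested by limma over all 12798 genes, none of the 9 members other than Inhbb had an adjusted p under 0.05 in any contrast. No gene of the whole table did (0% in each of the 5 contrasts). At an unadjusted p under 0.05, 1.52% of all genes were higher and 1.66% lower with PB1046 in mdx, and 1.09% and 0.828% in mdx:Utrn+/-. Of the 9 members other than Inhbb, 0 had an unadjusted p under 0.05 in either, with smallest values of 0.226 for Tgfb1 in mdx and 0.240 for Smad3 in mdx:Utrn+/-. In mdx 5 of the 9 were higher and 4 lower with PB1046, with a median of 0.09 against -0.02 for all genes. In mdx:Utrn+/- 6 were higher and 3 lower, with a median of 0.02 against 0.02 for all genes. These p-values do not show that the genes stayed level, since the intervals above still hold sizeable differences.

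**Figure D4:**
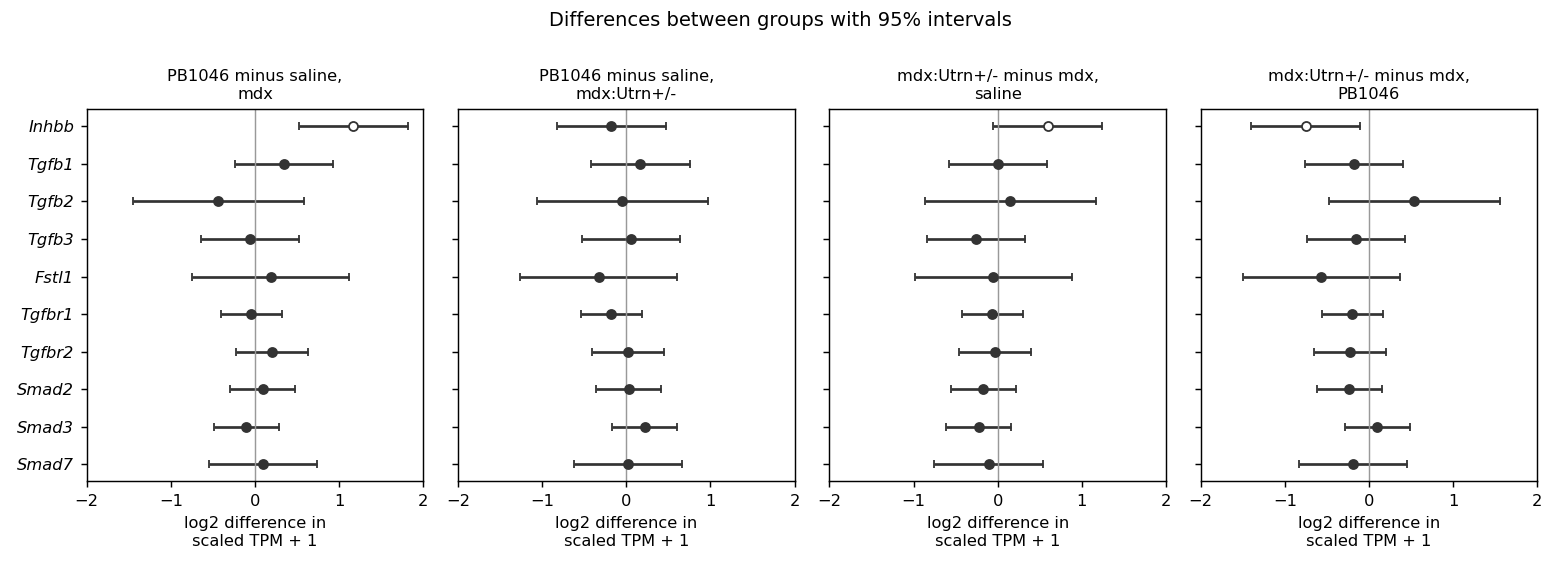
Differences between groups on the scale log2(scaled TPM + 1) with 95% intervals for the 10 genes in 4 contrasts; open circles mark Inhbb where its libraries served to choose it. The intervals of the 9 other genes span 0 in every contrast, from -0.44 (Tgfb2) to 0.34 (Tgfb1) for PB1046 in mdx.

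Between genotypes, the 9 members other than Inhbb were lower in mdx:Utrn+/- in 8 cases with saline and in 7 with PB1046. Their medians were -0.06 and -0.19, against -0.02 and 0.03 for all genes, of which 48.1% and 54.1% were higher. When the libraries were scaled by median-ratio factors instead, 7 of the 9 were lower with saline. With saline the largest differences down were Tgfb3 at -0.26 (-0.84 to 0.32) and Smad3 at -0.22 (-0.61 to 0.16). With PB1046 they ran from Fstl1 at -0.57 (-1.50 to 0.37) to Tgfb2 at 0.54 (-0.48 to 1.55), and the smallest unadjusted p was 0.210. With saline 0 of the 9 had an unadjusted p under 0.05, against 1.55% of all genes higher and 2.27% lower, and with PB1046 0 of the 9, against 1.06% and 0.703%. As deposited, Fstl1, Tgfbr1 and Tgfbr2 of the 9 were lower in all mdx:Utrn+/- PB1046 libraries than in all mdx PB1046 ones, against 6.33% of all genes tested (0.922% were higher). After scaling none of the 9 was, against 2.87% of all genes (2.88% were higher). Inhbb was lower without overlap on both scales, which is a description only, since the mdx PB1046 libraries served to choose it. Without scaling the median of all genes itself was -0.20 in both genotype contrasts and 0.14 and 0.15 for PB1046, and with scaling it was within 0.03 of 0. The test of whether the PB1046 effect differed between genotypes gave values from -0.51 (Fstl1, -1.83 to 0.80) to 0.39 (Tgfb2, -1.05 to 1.83) among these 9, and 2.47% of all genes had an unadjusted p under 0.05 there.

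Other genes of the pathway were taken from 4 lists. Of 14 tested ligands and latency genes outside the members, 0 passed the adjusted threshold in any contrast. With PB1046 in mdx, 46.5% of all genes were higher, with a median of -0.02. There 8 of the 14 were higher and 6 lower, with a median of 0.05. Leaving out single libraries gave 7 to 10 higher and a median between 0.03 (without PB1046 replicate 3) and 0.31 (without PB1046 replicate 2), with 0.21 without saline replicate 1. Of the 14, 4 had an unadjusted p under 0.05 in mdx: Thbs1 (thrombospondin 1, which frees latent TGF-beta) at 1.91 ± 0.84, Inhba at 1.55 ± 0.61, Lrrc32 (which holds latent TGF-beta on the cell surface) at 1.24 ± 0.51 and Itgb3 (an integrin subunit) at 0.98 ± 0.42 (log2 difference ± SE). These 4 were the ones without overlap between the groups. Of all genes tested, 1.52% were higher and 1.66% lower at that p. Without overlap, 6.56% of all genes were higher as deposited and 3.42% after scaling. Thbs1 stood at 5.74, 17.1 and 14.97 TPM with saline and at 58.4, 58.6 and 41.6 TPM with PB1046. In mdx:Utrn+/- 2 of the 14 were higher and 12 lower, with a median of -0.29, against 53.4% of all genes higher (median 0.02). Without mdx:Utrn+/- PB1046 replicate 3 the list had 7 higher and 7 lower, with a median of -0.07. In each mdx:Utrn+/- group replicate 3, the deepest library, was the lowest for Thbs1, Inhba, Lrrc32 and Itgb3, as for Inhbb. Thbs1 had an r of 0.85 and Lrrc32 of 0.87 with Inhbb.

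Of 20 tested receptors, Smads and inhibitors outside the members, 17 were higher with PB1046 in mdx (median 0.20) and 12 in mdx:Utrn+/- (median 0.09), against 46.5% and 53.4% of all genes. Leaving out single libraries gave 13 to 17 higher in mdx, so 17 is the top of that range, and a median of 0.11 (without PB1046 replicate 3) to 0.28. None passed the adjusted threshold, and 1 had an unadjusted p under 0.05 in these contrasts. This was Tgfbr3 (betaglycan, the co-receptor), at -0.55 ± 0.22 (SE) in mdx:Utrn+/-, where 1.09% of all genes were higher and 0.828% lower at that p. Fst, which passed the level filter only through mdx PB1046, was at 0.78 ± 0.36 in mdx and -0.18 ± 0.36 in mdx:Utrn+/- (SE). Smad4, the shared partner of SMAD2 and SMAD3, was at 0.02 ± 0.17 and 0.25 ± 0.17 (SE).

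Of 19 tested TGF-beta target genes, 15 were higher and 4 lower with PB1046 in mdx, with a median of 0.42. In mdx:Utrn+/- 4 were higher and 15 lower, with a median of -0.57. Of all genes, 46.5% were higher in mdx (median -0.02) and 53.4% in mdx:Utrn+/- (median 0.02). None of the 19 passed the adjusted threshold in either. In mdx 1 had an unadjusted p under 0.05, Cdkn1a (the cell cycle inhibitor p21), at 1.31 ± 0.58 (SE), and 1.52% of all genes were higher at that p. Cdkn1a stood at 15.7, 22.7 and 8.56 TPM with saline and at 13.2, 116 and 50.4 TPM with PB1046, with overlap. The collagen gene Col1a1 was at 1.24 ± 0.71 in mdx and -0.63 ± 0.71 in mdx:Utrn+/- (SE). The count higher in mdx ran from 11 to 17 and the median from 0.30 to 0.97 when single libraries were left out, and in mdx:Utrn+/- from 2 to 8 and from -0.78 to -0.13; the highest mdx median was without saline replicate 2, the lowest without saline replicate 3, and the mdx:Utrn+/- median nearest 0 without PB1046 replicate 3. The list shares 4 genes (Col1a1, Col1a2, Col3a1 and Postn) with the fibroblast markers and 2 (Acta2 and Tagln) with those of pericytes and smooth muscle. The fibroblast markers summed to 247 to 927 TPM in mdx saline, 560 to 1097 in mdx PB1046, 241 to 524 in mdx:Utrn+/- saline and 271 to 411 in mdx:Utrn+/- PB1046, and their part in the target genes' values was not tested.

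**Figure D5:**
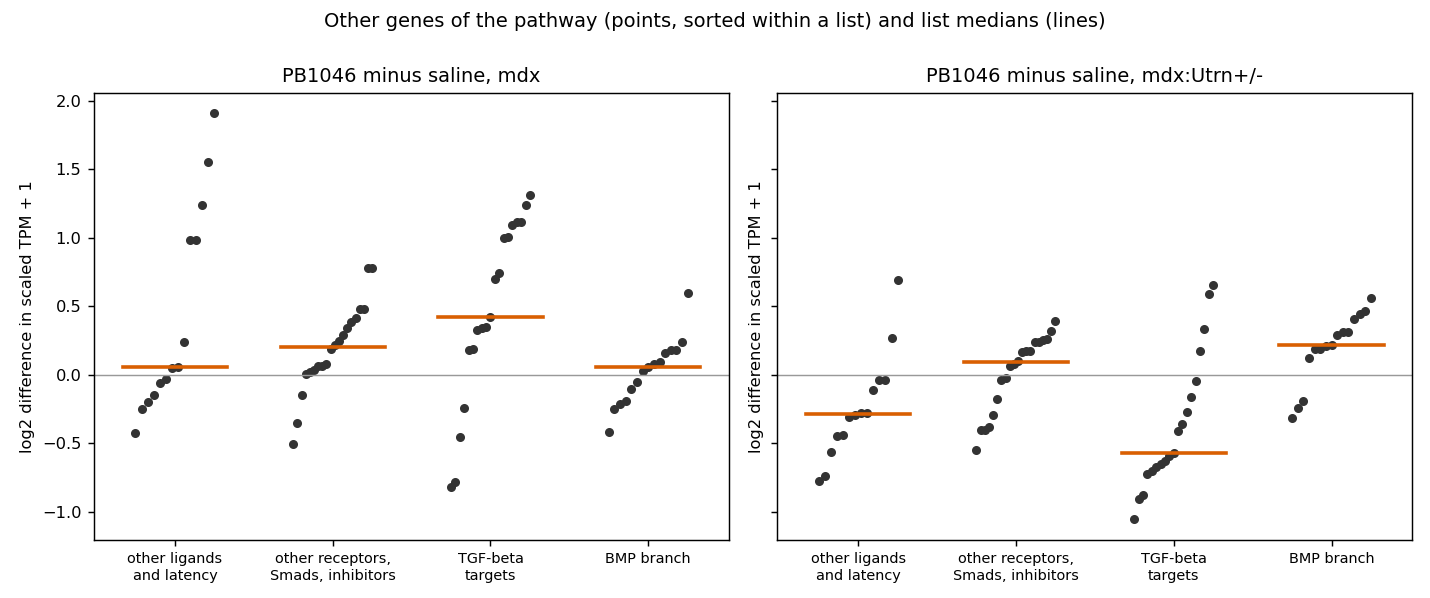
Log2 differences between PB1046 and saline (vertical axis, scaled TPM + 1) in mdx (left) and mdx:Utrn+/- (right) for the tested genes of 4 lists; points are genes sorted within a list and lines are list medians. The median of the TGF-beta target genes is 0.42 in mdx and -0.57 in mdx:Utrn+/-, against -0.02 and 0.02 for all genes.

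The branch of bone morphogenetic proteins (BMP), relatives of TGF-beta that signal through SMAD1 and SMAD5, had 15 tested genes of 26 in the list. Of these 9 were higher with PB1046 in mdx (median 0.06) and 12 in mdx:Utrn+/- (median 0.22), against 46.5% and 53.4% of all genes. None passed the adjusted threshold, and 1, Acvr1 (a type I receptor), had an unadjusted p under 0.05 in mdx:Utrn+/-, at 0.47 ± 0.18 (SE). It stood at 3.80, 4.15 and 4.41 TPM with saline and at 6.86, 7.76 and 5.54 TPM with PB1046 there, without overlap. Of all genes tested, 1.09% were higher at that p in mdx:Utrn+/-, and 5.14% were higher without overlap as deposited. In mdx Acvr1 stood at 5.61, 7.17 and 7.01 TPM with saline and at 4.57, 5.96 and 9.08 TPM with PB1046. Leaving out single libraries moved the number of BMP genes higher in mdx between 3 of 15 (median -0.28, without PB1046 replicate 3) and 10 of 15 (median 0.14, without PB1046 replicate 1).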

How the data were processed

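Poly-A RNA of isolated cardiomyocytes was sequenced in 12 libraries (RIN of at least 8, 1.0 µg RNA, stranded kit, per the labels' protocols). The authors' deposited table is named as raw counts, but its values are TPM, as every library sums to 1000000. It also holds the authors' pairwise log2 fold changes and log2 CPM, a likelihood ratio score, p-values and false discovery rates, per the file headers. Set against the differences computed here, those log2 fold changes subtract the group named first from that named second. edgeR and mm10 appear in the submitters' processing notes; for the aligner and counter the sources used here give no name.

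TPM within a gene are whole multiples of a step. These steps gave whole reads, within 0.1 reads, for 100% of the values of 18530 genes. TPM were divided by trimmed-mean factors (0.842 to 1.32) and fitted as log2(scaled TPM + 1) by limma 3.58.1 in R 4.3.3, trend and robust, with a mean per group over 12 libraries. A gene was tested if 3 or more libraries reached 1 TPM (12798 genes), with Benjamini-Hochberg adjustment over all of them at 0.05. On data simulated for PB1046 in mdx over 12798 genes, 33% of 100 genes changed by 1 on the log2 scale were called and 85% of 100 changed by 2. The changed genes were drawn from those with a mean log2 level above 2, so none was as scarce as Inhbb. Noise was drawn for each gene on its own, without shifts shared by the genes of a library. Relations used 100000 permutations (Python 3.11.15, numpy 2.4.6). Named were the 10 genes, up to 6 genes per list and contrast with the smallest unadjusted p, and the 5 genes most like Inhbb. The members and lists were chosen with earlier results of these data known.

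Alternatives were the pseudocount, the filter, the scaling, limma-voom on recovered reads, fits to the compared groups only, plain moderation, covariates, the replicate block and leaving out each library.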

Additional observations from a re-analysis of the deposited data

How the results depend on the processing

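None of the 9 members other than Inhbb passed the adjusted threshold under any of the settings run, nor did Inhbb in mdx:Utrn+/-. The number of genes past it was 0 under each setting, with an exception in the test of the difference of the PB1046 effects. That number ran from 0 to 1 gene when single libraries were left out (1 without mdx:Utrn+/- saline replicate 3). The direction of small differences was less stable. It was followed for 25 member results under 25 settings. Of these values, 573 kept their direction and side of the threshold and 50 changed sign, in 17 of the 25 results. Where nothing else is said the cause was not tested. For PB1046 in mdx, values of changed sign were 0.12 for Tgfb3, 0.12 for Tgfbr1 and 0.059 for Smad3 without scaling factors; -0.36 for Fstl1 with the fibroblast score as a term; -0.0023 for Fstl1 with Rn45s as a term; and -0.067 for Fstl1, 0.011 for Tgfbr1 and -0.0064 for Smad2 with log2 reads as a term, an alternative chosen after seeing the data. For PB1046 in mdx:Utrn+/-, the endothelial score as a term gave -0.041 for Tgfb1, 0.30 for Tgfb2, -0.12 for Tgfb3, -0.041 for Smad2 and -0.19 for Smad7. The fibroblast score gave 0.022 for Tgfb2 and -0.078 for Smad7, Rn45s -0.11 and log2 reads -0.078 for Smad7. No scaling gave 0.054 for Tgfb2, median-ratio factors -0.0035 for Tgfbr2 and -0.0026 for Smad7, and limma-voom on reads -0.033 and -0.10 for these genes. With the fibroblast score as a term Fstl1 was at 0.14 between genotypes under PB1046 and at 0.28 in the difference of effects. Leaving out single libraries gave, for PB1046 in mdx, -0.86 to 0.10 for Tgfb2, -0.35 to 0.21 for Tgfb3, -0.22 to 0.78 for Fstl1, -0.12 to 0.049 for Tgfbr1 and -0.12 to 0.23 for Smad7. In mdx:Utrn+/- it gave -0.46 to 0.15 for Inhbb, -0.0008 to 0.37 for Tgfb1, -0.32 to 0.36 for Tgfb2, -0.050 to 0.13 for Tgfb3, -0.10 to 0.15 for Tgfbr2, -0.058 to 0.15 for Smad2 and -0.17 to 0.35 for Smad7. The Tgfb2 difference of effects ran from -0.15 to 0.81.

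As a description, the Inhbb difference in mdx kept its sign throughout: 1.11 to 1.24 without single libraries, 1.32 without scaling and 0.73 with log2 reads as a term. Same-numbered libraries deviated together in some pairs (r of deviations 0.49 for replicate 1 of the mdx groups, 0.45 and 0.38 for replicates 1 and 2 of the PB1046 groups) and not in others (down to -0.20), so the numbers were not taken as a pairing. With the replicate block 0 genes passed and the Inhbb difference in mdx was 1.17. Inhbb rested on 30 to 51 reads in 9 libraries, and Fst on 9 to 38 and Inhba on 8 to 81 reads a library. How much of their spread was counting error was not tested.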
